A study of Arabidopsis thaliana with 12 samples.

Results

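The merged peaks that collected the most reads in an anti-Flag pull-down from Arabidopsis thaliana seedlings without any Flag tag are described here as strong background peaks. They are the top 10% of 2436 merged peaks, and were chosen from the 3 wild-type (WT) immunoprecipitation (IP) libraries alone. Each library was divided by its median count over all 2436 peaks, and the peaks with the highest mean of the 3 WT values were kept. A scaled value of 1 is therefore the median peak of a library. The values of the FL3-Flag libraries did not enter the choice.

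Seedlings of the genotype FL3-Flag, in which FL3 is joined to the Flag epitope, were compared with seedlings of the genotype Col-0, the WT. The series title names FL1, whereas the design text and the sample labels name FL3, and the labels are followed here. Both genotypes were grown for 10 days, and the series design gives blue light, continuous, with a fluence rate of 30 µmol·m−2·s−1. Material of 1 g was exposed for 30 minutes to EGS at 1.5 mM, which links proteins to each other, and the same anti-Flag beads were used on both genotypes. The labels do not give the promoter that drives the tagged protein, the number of independent lines, or whether replicates came from separate plant cultures. The p-values behind the calls therefore rest on a spread between libraries that may be only technical. Each genotype had 3 IP libraries with counts, and the 6 input libraries were not analysed here.

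In chromatin immunoprecipitation followed by sequencing (ChIP-seq), beads also retain some chromatin that does not carry the target protein. A pull-down from plants without the tag is commonly used to mark regions where enrichment in the tagged line needs care. Its read counts also depend on how much of a sequence was present in the input. The inputs were not analysed here, so the strength of a peak is not a measure of retention alone. Regions known for high read counts in such controls include open, highly transcribed chromatin and sequences present in many copies, such as organelle genomes and repeats. The peaks carry only running IDs, and neither positions nor lengths nor nearby genes were analysed here. No peak is assigned to any such class, no sequence is shown, and a value is per peak and not per base, so a long peak and a dense one cannot be told apart.

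The libraries held 5300645 to 6237558 reads over the merged peaks in the FL3-Flag IP and 7874284 to 9155289 in the WT IP. The median peak held 202 to 256.5 reads in the FL3-Flag IP and 225.5 to 229 in the WT IP. The strong background peaks were deeply covered, with at least 428 reads in every FL3-Flag library and at least 792 in every WT library. WT replicate 1 stood apart from its group. Over these peaks, its rank correlation with the other WT libraries was 0.887 and 0.890, against 0.986 between WT replicates 2 and 3 and 0.962 to 0.988 among the FL3-Flag libraries. When the counts of 2 replicates were compared over all peaks but the 4 strongest, chi-square divided by its degrees of freedom was at least 2.897, above the value near 1 that sampling noise gives, so no library was a copy of another.

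The strong background peaks spanned a very wide range of strength in the WT IP, by which they were chosen. Their WT means ran from 4.16 to 15475 times the median peak, with a median of 6.63. The choice has no natural edge at its lower end. The last peaks inside were Merge_peak_639, Merge_peak_1224, Merge_peak_1766 and Merge_peak_1382, at WT means of 4.20, 4.18, 4.18 and 4.16. The first peaks outside were Merge_peak_1311, Merge_peak_1375, Merge_peak_2359 and Merge_peak_26, at 4.14, 4.13, 4.12 and 4.11.

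**Figure D1:**
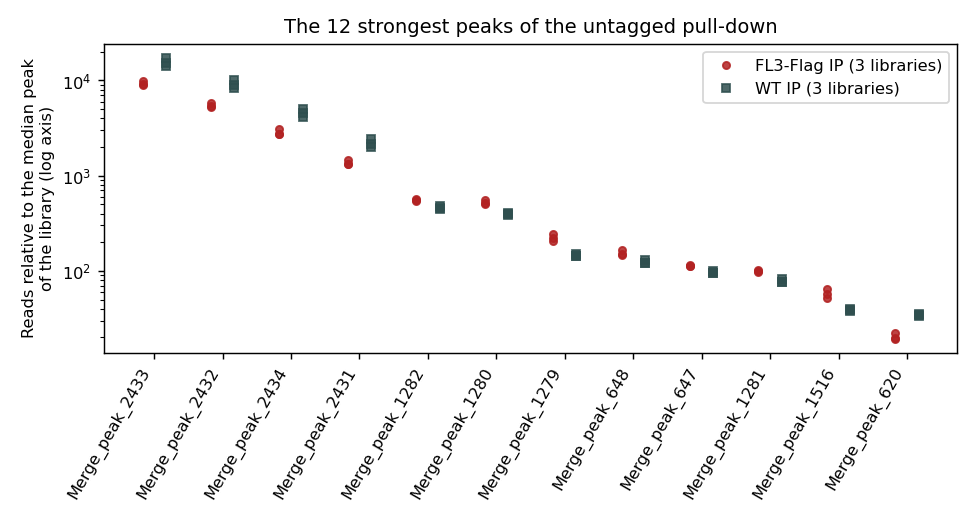
Reads in each of the 3 FL3-Flag IP libraries (circles) and 3 WT IP libraries (squares) at the 12 peaks of highest WT mean, each divided by the library's median peak, on a log axis. The 4 strongest peaks and Merge_peak_620 lie lower in all FL3-Flag libraries, and the other 7 lie higher in all of them.

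Most of these peaks were also among the strongest in the FL3-Flag IP, whose libraries the choice did not use. When a list of the same length was drawn by the FL3-Flag mean, 209 peaks were in both, which is 85.7% of each list, and 35 were not. In the single FL3-Flag libraries 207, 207 and 215 of the strong background peaks lay in that library's own top 10%, and 199 did so in all 3. The WT libraries, which made the choice, held 231, 235 and 234 of them in their own top 10%. The FL3-Flag means of the strong background peaks ran from 2.00 to 9370 times the median peak, with a median of 5.31. Their lowest value in any FL3-Flag library was 1.81, so none fell to the median peak in any of the 3. All but 2 of them stayed among the strongest 20% of peaks in the FL3-Flag IP.

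The order of strength was partly shared between the genotypes. Over the strong background peaks the FL3-Flag and WT means correlated at 0.966 on the log2 scale (Pearson) and at 0.808 by rank (Spearman). The Pearson value rests on the few very strong peaks. Over the 227 peaks from WT rank 18 down it was 0.758. The peaks share their libraries and may differ in length, so these values describe the data and carry no test. The order of the first 11 peaks was the same in both genotypes, from Merge_peak_2433 down to Merge_peak_1516.

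The strong background peaks took up most of the reads counted over merged peaks in every library. They held 89.2%, 89.1% and 90.1% of the peak reads in FL3-Flag replicates 1 to 3, and 93.4%, 92.1% and 92.6% in WT replicates 1 to 3. The FL3-Flag values were all below the WT values. This order was not present without the 4 strongest peaks, Merge_peak_2431 to Merge_peak_2434. Those 4 alone held 76.7% ± 0.804 of the peak reads in the FL3-Flag IP and 84.2% ± 1.54 in the WT IP (SD, n = 3 libraries each). Of the reads outside those 4 peaks, the other 240 held 54.6%, 54.1% and 55.7% in the FL3-Flag libraries and 53.2%, 54.3% and 53.8% in the WT libraries, and the genotypes overlapped.

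Inside the 240 peaks the reads were divided differently. The 13 peaks of WT rank 5 to 17 held 32.4% ± 1.23 of the reads outside the 4 strongest peaks in the FL3-Flag IP and 25.3% ± 0.535 in the WT IP (SD, n = 3 libraries each). The 227 peaks from WT rank 18 down held 22.4% ± 0.462 in the FL3-Flag IP and 28.4% ± 0.480 in the WT IP. Neither pair of ranges overlapped, and the 2 differences ran in opposite directions. A strong group that gains share lowers the share of every other group, so these percentages are not independent of each other. Shares over chosen peaks get no p-value here. Most reads of the 13 peaks lay in Merge_peak_1279 to Merge_peak_1282. In scaled values, 3 of the 13 were lower in all FL3-Flag libraries than in any WT library. Both rank groups were set with the values known.

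The change of each peak was taken from edgeR's quasi-likelihood test of FL3-Flag IP against WT IP, fitted on all 2436 peaks and called at an adjusted p below 0.05. Of the strong background peaks, 153 were called lower in the FL3-Flag IP, 26 were called higher and 65 were not called. Over all peaks, 33.1% were called, 15.4% lower and 17.7% higher. The WT values of this comparison chose the peaks, so a peak with a high WT value by chance is favoured and would appear lower in the FL3-Flag IP. The counts are a description, and nothing is read from their distance to the background. Their median log2 change was -0.35, against 0.00 over all peaks and -0.20 over the 10% of peaks that follow them in WT strength. In scaled values, the FL3-Flag libraries were all lower than the WT libraries at 170 strong background peaks and all higher at 20, against 25.2% and 17.4% of all peaks.

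The calls depended on how the libraries were scaled, and the total over all peaks reversed the sign of the median change. DESeq2 size factors gave 26 higher and 155 lower, against 418 and 388 of all 2436 peaks. The total outside the 4 strongest peaks gave 24 higher and 164 lower, against 388 and 444 of all peaks, with a median of -0.39. No scaling gave 16 higher and 117 lower, against 234 and 230 of all peaks, with a median of -0.37. When libraries were scaled by their total over all peaks, a value ruled by the 4 strongest peaks, 93 strong background peaks were called higher and 29 lower. Over all 2436 peaks, 1837 were then called higher and 33 lower. That scaling moved the median of all peaks to 0.53 and that of the strong background peaks to 0.17, a difference of -0.36. Abundance-dependent scaling, which removes any trend with strength by construction, gave 58 higher and 69 lower, and a median of -0.07. Over all peaks it called 328 higher and 273 lower. The log2 changes and calls given here use edgeR's TMM scaling factors, whereas scaled values are relative to the median peak. With each library's median count as its scaling factor, 20 strong background peaks were called higher and 167 lower, with a median of -0.40. Over all peaks, 369 were then called higher and 473 lower. When FL3-Flag replicate 2 was left out, 17 strong background peaks were called higher, against 279 of all peaks. Without WT replicate 1 the calls were 22 higher and 165 lower, against 391 and 368 of all peaks.

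To describe the role of the choice by WT values, peaks were chosen again from only 2 WT libraries. The FL3-Flag mean was then compared with the WT library left out. With WT replicate 1 left out, the median log2 difference of the chosen peaks was -0.32, and 176 of them were lower in the FL3-Flag mean. With WT replicate 2 left out it was -0.43, with 208 lower, and with WT replicate 3 left out it was -0.42, with 214 lower. In the same scaled values, the difference from the pairs that made the choice was -0.40, -0.41 and -0.40. The lists chosen in this way shared 235, 239 and 241 peaks with the original one, and the comparison was made in median-scaled values only. Replicates may be only technical, so the library left out may share its deviations with those that made the choice. These values therefore cannot give the size of the effect of the choice. When the top 10% were taken by the FL3-Flag mean instead, which favours rises, 119 were called lower and 41 higher, with a median log2 change of -0.21. Over all peaks, 15.4% were called lower and 17.7% higher. That list shares 209 peaks with the strong background peaks, so it cannot give the size of the effect of the choice either.

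**Figure D2:**
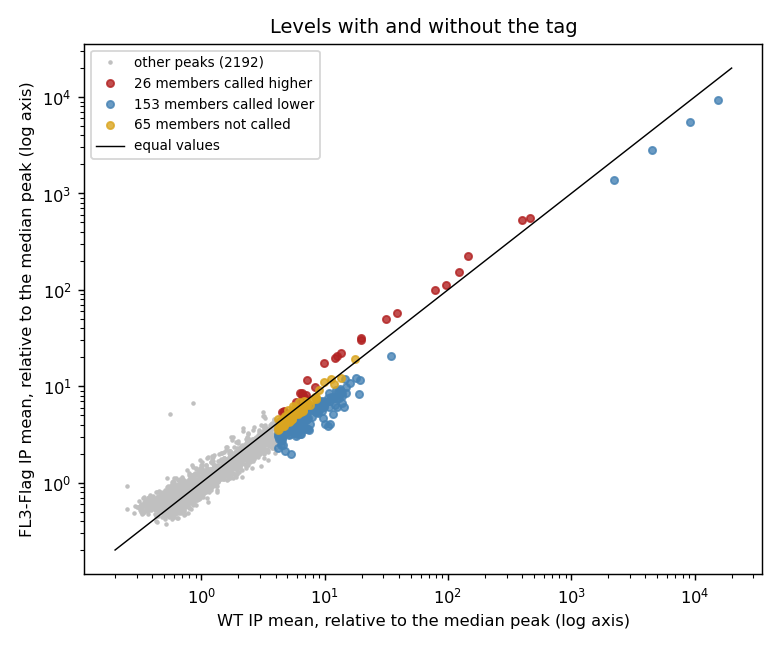
FL3-Flag IP mean (vertical) against WT IP mean (horizontal) of every peak, both relative to the median peak and on log axes, with the strong background peaks coloured by their call and the 2192 other peaks in grey. Most coloured points below 20 times the median peak lie under the line of equal values, a group of points between about 10 and 600 lies over it, and the 4 strongest peaks lie under it.

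The change did not move steadily with the strength of the peak in the WT IP. The 4 strongest peaks were all called lower, with a median log2 change of -0.65. Of the 13 peaks of WT rank 5 to 17, 10 were called higher and 3 lower, with a median of 0.40. Of the 44 peaks of rank 18 to 61, 4 were called higher and 35 lower, with a median of -0.53. The 61 peaks that followed held 5 calls higher and 43 lower, with a median of -0.36. The median was -0.31 among the next 61, with 4 higher and 34 lower, and -0.29 among the weakest 61, with 3 higher and 34 lower. These rank groups were set with the values known. Under the total over all peaks, ranks 5 to 17 held 10 calls higher and 1 lower, and the ranks from 18 down held 83 higher and 24 lower. That scaling called 1837 of all 2436 peaks higher and 33 lower. Under abundance-dependent scaling ranks 5 to 17 held 9 higher and 3 lower, and the ranks from 18 down held 49 higher and 62 lower. Over all peaks, 328 were then called higher and 273 lower.

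**Figure D3:**
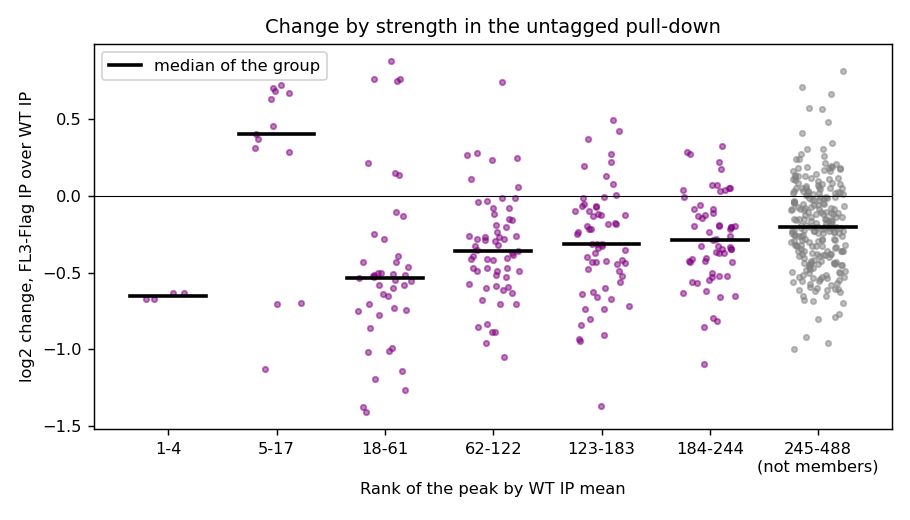
The edgeR log2 change of FL3-Flag IP over WT IP for each peak, in groups by WT rank, with the median of each group as a bar; the grey group holds the 10% of peaks that follow. The medians are -0.65, 0.40, -0.53, -0.36, -0.31 and -0.29 for the 6 groups of strong peaks and -0.20 for the grey one.

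The 4 strongest peaks, Merge_peak_2431 to Merge_peak_2434, moved as 1 block. Merge_peak_2433, the strongest peak of all, stood at 9027, 9110 and 9974 times the median peak in FL3-Flag replicates 1 to 3, and at 17211, 14029 and 15186 times in WT replicates 1 to 3. The genotypes did not overlap, and WT replicate 1 was the highest library. Its mean in the FL3-Flag IP was 0.606 of that in the WT IP. The ratio of Merge_peak_2433 to Merge_peak_2432 was 1.70 ± 0.0014 in the FL3-Flag libraries and 1.70 ± 0.0021 in the WT libraries (SD, n = 3 each). Its ratio to Merge_peak_2431 was 6.81 ± 0.0268 in the FL3-Flag libraries and 6.99 ± 0.0419 in the WT libraries. Its ratio to Merge_peak_2434 was 3.31 ± 0.0445 in the FL3-Flag libraries and 3.39 ± 0.0234 in the WT libraries. The ratios to Merge_peak_2431 and Merge_peak_2434 did not overlap between the genotypes. The proportions among the 4 peaks thus moved by a few percent at most. With TMM factors, their level was lower in the FL3-Flag IP by a log2 change of at least 0.63. With scaling by the total their log2 changes ran only from -0.14 to -0.10, and all 4 were still called lower. The peaks with the next IDs on both sides were of ordinary strength: Merge_peak_2430 and Merge_peak_2435 ranked 1909 and 1117 in the WT IP. Merge_peak_2430 had a log2 change of 0.03 and was not called. Merge_peak_2435 and the last ID, Merge_peak_2436, were called higher, at 0.54 and 0.57, opposite to the 4 strongest peaks.

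The next strongest peaks were higher with the tag. Merge_peak_1282 had 551, 542 and 566 times the median peak in the FL3-Flag libraries and 456, 482 and 447 times in the WT libraries. Merge_peak_1280 had 518, 502 and 557 times in the FL3-Flag libraries and 390, 409 and 392 times in the WT libraries. At both peaks every FL3-Flag library exceeded every WT library. The weaker Merge_peak_1279 had 219, 208 and 246 times in the FL3-Flag libraries, against 142, 149 and 143 times in the WT libraries. The edgeR log2 changes were 0.31 ± 0.04 at Merge_peak_1282, 0.46 ± 0.05 at Merge_peak_1280, 0.40 ± 0.04 at Merge_peak_1281 and 0.68 ± 0.07 at Merge_peak_1279 (SE over the replicates' log2 scaled values). Against WT replicate 2 alone, Merge_peak_1282 was no longer called.

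Some proportions inside the run Merge_peak_1279 to Merge_peak_1282 moved more than those among the 4 strongest peaks. The ratio of Merge_peak_1280 to Merge_peak_1279 was 2.35 ± 0.0759 in the FL3-Flag libraries and 2.74 ± 0.0029 in the WT libraries (SD, n = 3 each), with no overlap. The ratio of Merge_peak_1282 to Merge_peak_1280 was 1.05 ± 0.0332 in the FL3-Flag libraries and 1.16 ± 0.0194 in the WT libraries, again with no overlap. That of Merge_peak_1280 to Merge_peak_1281 moved less and was higher in the FL3-Flag libraries, at 5.27 ± 0.1765 against 5.08 ± 0.0462 in the WT libraries. Merge_peak_1283, which follows the run and is no member, stood at 5.24, 4.92 and 6.0 in the FL3-Flag libraries and at 3.26, 3.15 and 3.13 in the WT libraries. A ratio within a library does not depend on its scaling.

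Pairs of strong peaks with neighbouring IDs showed the same direction. Merge_peak_648 averaged 154 ± 9.59 times the median peak in the FL3-Flag IP and 124 ± 4.57 times in the WT IP, and its neighbour Merge_peak_647 averaged 113 ± 2.38 and 96.4 ± 2.30 times in the same order of genotypes (SD, n = 3 each). Merge_peak_1516 averaged 58.0 ± 6.35 times in the FL3-Flag IP and 38.7 ± 0.525 times in the WT IP. Its neighbour Merge_peak_1515 averaged 49.5 ± 2.78 times in the FL3-Flag IP and 31.6 ± 1.87 times in the WT IP. All 4 were called higher. Under abundance-dependent scaling, with no scaling and against WT replicate 2 alone, Merge_peak_647 was no longer called.

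The 3 peaks among WT ranks 5 to 17 that were lower carried IDs apart from these runs. Merge_peak_620 had 19.4, 22.0 and 19.7 times the median peak in the FL3-Flag libraries and 33.2, 34.5 and 35.5 times in the WT libraries. Merge_peak_861 averaged 11.6 ± 0.687 times in the FL3-Flag IP and 19.6 ± 1.66 times in the WT IP. Merge_peak_214 averaged 8.33 ± 0.525 times in the FL3-Flag IP and 18.9 ± 1.38 times in the WT IP (SD, n = 3 each). The genotypes did not overlap at any of the 3. Under the total over all peaks Merge_peak_620 and Merge_peak_861 were no longer called, each with a log2 change of -0.18, and Merge_peak_214 was still called lower.

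The 4 largest rises among the strong background peaks lay between Merge_peak_2091 and Merge_peak_2097, and Merge_peak_2090 came next after Merge_peak_1509. Merge_peak_2097 had 17.6, 17 and 17.9 times the median peak in the FL3-Flag libraries and 9.48, 10.3 and 9.83 times in the WT libraries, a log2 change of 0.88 ± 0.04 (SE). Merge_peak_2095 and Merge_peak_2096 both had log2 changes of 0.76, Merge_peak_2091 one of 0.75 and Merge_peak_2090 one of 0.72. Merge_peak_2090, the strongest of them, had 31.1, 29.0 and 34.3 times the median peak in the FL3-Flag libraries and 19.2, 21.1 and 19.1 times in the WT libraries. Not all of their proportions were kept. The ratio of Merge_peak_2090 to Merge_peak_2091 was 1.60 ± 0.0237 in the FL3-Flag libraries and 1.63 ± 0.0471 in the WT libraries, and that of Merge_peak_2095 to Merge_peak_2096 was 1.09 ± 0.0276 and 1.09 ± 0.0331 in the same order, with overlap in both cases. The ratio of Merge_peak_2090 to Merge_peak_2097 was 1.80 ± 0.113 in the FL3-Flag libraries and 2.00 ± 0.0549 in the WT libraries, with no overlap (SD, n = 3 each).

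The weaker peaks between and after them were higher as well. Merge_peak_2092, Merge_peak_2093 and Merge_peak_2094, which are no members, had log2 changes of 0.71, 0.82 and 0.93, and Merge_peak_2098 and Merge_peak_2099 had 0.91 and 0.70. All 5 were called higher, and Merge_peak_2098 was not called against WT replicate 2 alone. Merge_peak_2094 had only 1.22, 1.14 and 0.97 times the median peak in the FL3-Flag libraries and 0.64, 0.70 and 0.47 times in the WT libraries. Merge_peak_2100, the next ID, had a log2 change of 0.00 and was not called. The change was thus of like size in peaks whose WT means differed widely, from 0.36 at Merge_peak_2098 to 19.8 at Merge_peak_2090.

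**Figure D4:**
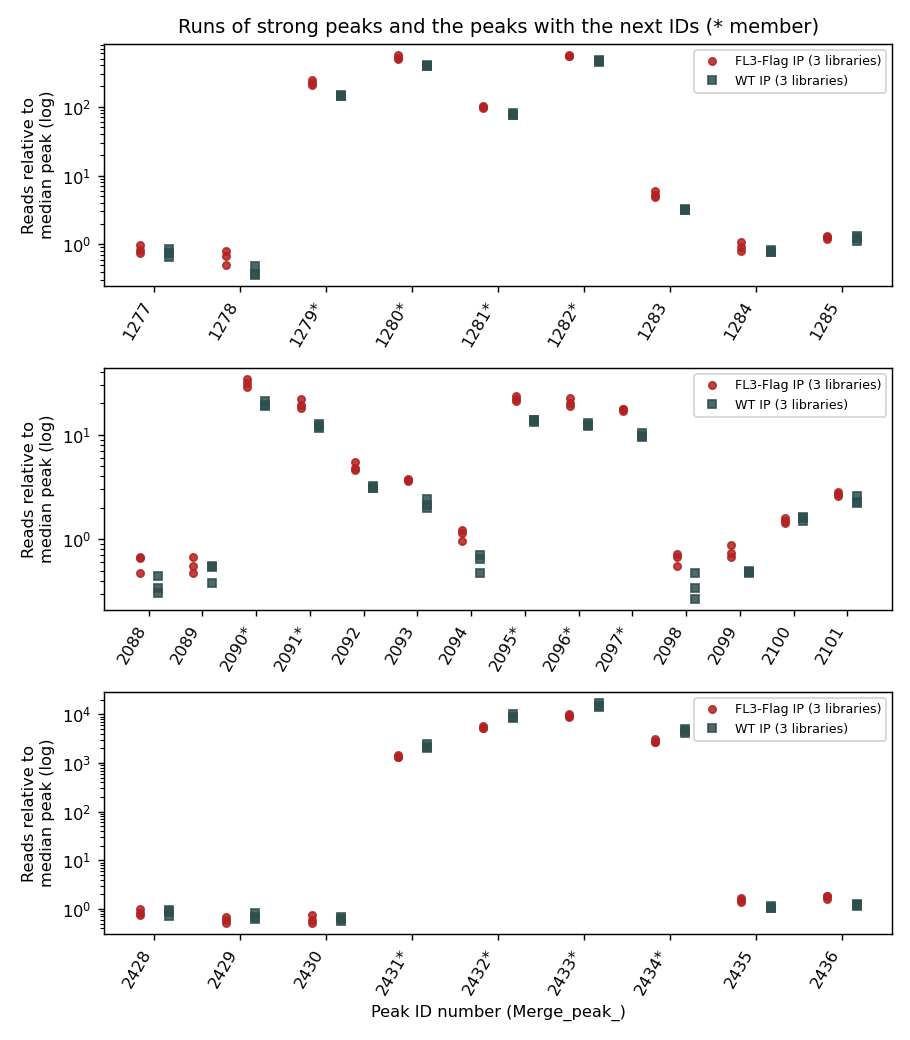
Reads relative to the median peak (log axis) in 3 FL3-Flag IP libraries (circles) and 3 WT IP libraries (squares) for 3 stretches of peak IDs, with an asterisk at each strong background peak. The upper and middle stretches are higher in the FL3-Flag libraries at their strong peaks, and the lower one, Merge_peak_2431 to Merge_peak_2434, is lower.

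Merge_peak_1509 and its neighbour Merge_peak_1508 were called in opposite directions, the one such case among 31 runs of neighbouring IDs, at log2 changes of 0.74 and -1.19. Merge_peak_1509 had 12.1, 11.9 and 10.8 times the median peak in the FL3-Flag libraries and 7.20, 7.64 and 6.71 times in the WT libraries. Merge_peak_1508 had 5.93, 6.13 and 6.33 times in the FL3-Flag libraries and 17.6, 13.3 and 12.6 times in the WT libraries. The ratio of Merge_peak_1508 to Merge_peak_1509 was 0.530 ± 0.050 in the FL3-Flag libraries and 2.02 ± 0.378 in the WT libraries (SD, n = 3 each). Neither peak overlapped between the genotypes, and the pair exchanged its order.

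The deepest falls reached well over 2-fold. Of the 12 peaks in the whole table that were called lower by 2-fold or more, 11 were strong background peaks, and of the 10 called higher by 2-fold or more none was. These counts depend on the scaling, and the WT values behind them chose the peaks. With scaling by the total, 0 peaks were called lower by 2-fold or more, and 333 were called higher by as much, 11 of them strong background peaks. Under abundance-dependent scaling 3 were lower by 2-fold or more, all of them strong background peaks, and 11 were higher, 6 of them strong background peaks. Without WT replicate 1, 7 were lower by 2-fold or more, all of them strong background peaks. Merge_peak_230 had 3.10, 3.97 and 4.59 times the median peak in the FL3-Flag libraries and 12, 9.71 and 10.3 times in the WT libraries, a log2 change of -1.41 ± 0.19 (SE). Its neighbour Merge_peak_229 had 3.71, 4.12 and 4.48 times in the FL3-Flag libraries and 12.9, 9.86 and 10.3 times in the WT libraries. Merge_peak_231, the third peak of that run, went the other way in value and was not called, at 6.20 ± 0.337 times in the FL3-Flag IP and 5.51 ± 1.13 times in the WT IP. At Merge_peak_230 and Merge_peak_229, WT replicate 1 was the highest library.

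Merge_peak_2069 averaged 4.08 ± 0.299 times the median peak in the FL3-Flag IP and 10.2 ± 0.726 times in the WT IP, and Merge_peak_1323, whose neighbour Merge_peak_1322 was also called lower, had a log2 change of -1.14. Merge_peak_775 had 1.81, 1.95 and 2.24 times in the FL3-Flag libraries and 6.47, 4.66 and 4.93 times in the WT libraries. Merge_peak_2339 had 2.09, 2.20 and 2.12 times in the FL3-Flag libraries and 5.54, 4.29 and 4.39 times in the WT libraries. Both ended far down the FL3-Flag order, at ranks 543 and 499, and the next lowest of the strong background peaks ranked 452. Since the WT holds no Flag tag, a fall against it does not measure a loss of tagged FL3.

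In all, 35 strong background peaks left the top 10% when it was drawn by the FL3-Flag mean. Such peaks are picked by a high WT rank and a lower FL3-Flag rank, which favours lower calls. Of these 35, 34 were called lower, against 15.4% of all peaks, and nothing is read from that difference. Merge_peak_1224 was the exception, at 3.51 times the median peak in the FL3-Flag IP and 4.18 times in the WT IP. Besides Merge_peak_775 and Merge_peak_2339, the lowest in FL3-Flag rank were Merge_peak_1228 and Merge_peak_1670, at ranks 452 and 424. Of the 35 peaks that took their places, 15 were called higher and the other 20 were not called. Their choice favours higher calls in the same way, and 17.7% of all peaks were called higher. Among them 32 came from the 10% of peaks next in WT strength. The strongest entrants in the FL3-Flag IP were Merge_peak_1558, Merge_peak_1283, Merge_peak_1559 and Merge_peak_2092. Merge_peak_1558 and Merge_peak_1559 stood apart, with WT means of 0.86 and 0.56, below the median peak, and FL3-Flag means of 6.73 and 5.2. The other entrant from further down was Merge_peak_2093, of WT rank 558.

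The running IDs were not used by the choice. Of the strong background peaks, 73 had a neighbouring ID that was also one of them, in 31 runs of which 7 held 3 peaks or more. The positions next to such a peak were held by another in 17.2% of cases, whereas they make up 10.0% of all peaks. The 385 peaks next to one that were not strong background peaks themselves, from which strong neighbours are thus already removed, had a median of 0.89 times the median peak in the FL3-Flag IP and 0.85 times in the WT IP, against 0.91 and 0.90 for all other peaks. Whether IDs follow the order of the genome is not given in the sources used here.

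Of the 73 peaks in runs, 46 were called lower and 15 higher, and of all strong background peaks 62.7% were called lower and 10.7% higher. With so many lower calls, runs called lower throughout can arise without any link between neighbours. The number of runs called in 1 direction was not tested. All peaks were called lower in 14 runs, among them Merge_peak_749 to Merge_peak_751 at log2 changes from -0.53 to -0.39, and all were called higher in 5 runs. With scaling by the total, no peak from Merge_peak_749 to Merge_peak_751 was called. The 5 runs held 13 of the 26 peaks called higher. In 11 runs at least 1 peak was not called. These included Merge_peak_1694 to Merge_peak_1697, from -0.74 to 0.05, and Merge_peak_1970 to Merge_peak_1973, from -0.66 to 0.13. Among the 171 peaks without such a neighbour, 11 were called higher and 107 lower. The highest of these 11 in both genotypes was Merge_peak_671, at 30.2 ± 3.23 times the median peak in the FL3-Flag IP and 19.7 ± 0.522 times in the WT IP (SD, n = 3 each).

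The FL3-Flag replicates were close to each other at these peaks. The coefficient of variation over the 3 FL3-Flag libraries had a median of 5.59% over the strong background peaks, against 8.5% over all peaks and 6.18% over the 10% next in WT strength. Counting error alone gives medians of 2.86%, 6.63% and 4.0% for the same groups. The coefficient stayed below 10% at 208 of the strong background peaks. The widest spreads were at Merge_peak_230, Merge_peak_1620 and Merge_peak_1228, at 19.3%, 19.2% and 18.6%. At Merge_peak_1620 the FL3-Flag libraries had 3.16, 3.85 and 2.62 times the median peak and the WT libraries 4.35, 4.40 and 4.12 times, with no overlap.

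The WT replicates differed mainly through replicate 1, which was the highest WT library at 85 strong background peaks and the lowest at 129. Among the 85 peaks, 73 were called lower in the FL3-Flag IP and 12 were not called. Among the 129 peaks, 63 were called lower and 18 higher, and 48 were not called. With WT replicate 1 left out of the fit, the 85 held 71 calls lower and the 129 held 77 lower and 14 higher. The median log2 changes in that fit were -0.50 and -0.28. These subsets were drawn from the WT values and the difference between them was not tested. Over all strong background peaks, WT replicate 1 was also the WT library least like the FL3-Flag libraries, with rank correlations of 0.634 to 0.713, against 0.819 to 0.881 for WT replicates 2 and 3.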

How the data were processed

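Raw read counts over 2436 merged peaks were deposited for the 3 FL3-Flag and the 3 WT IP libraries. That they are unscaled counts was judged from their values, which are whole and sum to different totals. The submitters' processing notes name BWA (0.7.17-r1188), the peak caller MACS3 (3.0.0a7), deepTools (3.5.1), ChIPseeker (1.34.1) and TAIR10, without saying what each was used for. How peaks were called and merged, and how duplicates and reads matching several places were handled, is not given in the sources used here. Such handling could set counts in repeated sequence, and reads outside peaks are not counted.

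Libraries were grouped by title. The 244 peaks described were chosen on counts divided by each library's median. Changes came from edgeR 4.0.16 in R 4.3.3, with TMM factors, robust quasi-likelihood tests, only genotype in the model, and Benjamini-Hochberg adjustment over the full table. The edgeR filter on low counts (minimum 10) took out 0 peaks. Alternatives used DESeq2 1.42.0, other scalings, limma 3.58.1 cyclic loess on log2 counts (0.5 added, 3 rounds), a replicate block, other choices of peaks and leaving out libraries. A run without the 4 strongest peaks was chosen after seeing the data.

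The peaks, rank groups and naming rules were chosen with earlier results of these data known. Named are the 12 highest WT means, the 8 largest and 8 smallest called changes without overlap, the 4 peaks on either side of the threshold, the 4 members of lowest and 4 non-members of highest FL3-Flag rank, the 3 members with the widest FL3-Flag spread, and runs of 3 or more IDs. Others named in the text were chosen after their values were seen.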

Additional observations from a re-analysis of the deposited data

How the results depend on the processing

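The main values for the strong background peaks were 26 called higher, 153 called lower and a median log2 change of -0.35. The total over all peaks gave 93, 29 and 0.17, where 1837 of all 2436 peaks were called higher and 33 lower. Abundance-dependent scaling gave 58, 69 and -0.069, where 328 of all peaks were called higher and 273 lower. No scaling gave 16 called higher and 117 called lower, against 234 and 230 of all peaks, and the cause was not tested. The median was -0.40 with each library's median count as its scaling factor and -0.27 with upper-quartile factors. With any single library left out there were 17 to 31 higher, 137 to 165 lower and medians from -0.36 to -0.35. Over all peaks these fits called 279 to 422 higher and 279 to 368 lower. Peaks chosen from the other WT libraries and compared with 1 WT library alone, whose spread is assumed to be that of the FL3-Flag libraries, gave 14 higher against WT replicate 2, 17 higher against WT replicate 3 and a median of -0.30 against WT replicate 1. Choosing peaks by the mean of all 6 libraries gave a median of -0.29, and choosing by the FL3-Flag mean gave 41 higher and a median of -0.21. The top 5% by the WT mean held 85 lower with a median of -0.43, and the top 20% held 255 lower with a median of -0.26. The main fit behind these other choices called 17.7% of all peaks higher and 15.4% lower. DESeq2 gave 23 higher and 151 lower, against 378 and 338 of all peaks.

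Shared membership with the FL3-Flag top list was 209, 207 to 214 with 1 library left out, 98 in the top 5% and 438 in the top 20%. Peaks with a neighbouring ID in the list numbered 73, 70 to 73 with 1 library left out, 31 in the top 5% and 203 in the top 20%. The share of peak reads in the strong background peaks differed by -3.23 percentage points (FL3-Flag minus WT), from -3.54 to -2.90 with 1 library left out, and by 1.05 without the 4 strongest peaks. The median coefficient of variation over FL3-Flag libraries was 5.59%, and 3.84% to 5.77% with 1 of them left out. A fit with the replicate block called 24 of the strong background peaks higher and 147 lower, against 422 and 363 of all peaks. Across all peaks, deviations of same-numbered libraries correlated at -0.01, 0.00 and -0.07, so the numbers were not taken as pairs. The settings without a filter tested nothing, since the filter removed 0 peaks. At the lowest depth among these peaks, 428 reads, counting error alone is 4.83%.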

Other observations

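The strong background peaks were spread over the whole range of running IDs. In 12 blocks of 203 consecutive IDs each, the number of these peaks ranged from 15 in IDs 813 to 1015 to 30 in IDs 1625 to 1827. This is a description of the IDs, whose order is not explained in the sources used here.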
